A study of Homo sapiens with 6 samples.

Results

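Interferon-stimulated genes and the RNA and DNA sensors that act upstream of them were followed in C4-2 cells, a castration-resistant prostate cancer line derived from LNCaP. The list named 46 genes of the interferon system by symbol, chosen with earlier results of these data known. Of these, 39 had a row among the 14456 genes of the table and 7 (IRF9, CGAS, OAS2, IFITM1, IFI27, IFI44L and SAMD9) were not analysed here. The compared groups were C4-2 cells given 100 nM IPI-9119, an inhibitor of fatty acid synthase (FASN), for 6 days (3 libraries), and C4-2 cells given 0.1% DMSO (3 libraries). Both groups grew in RPMI medium with 10% fetal bovine serum, and polyA-selected RNA was sequenced. C4-2 is a single established line. Whether the replicates came from separate cultures is not labelled, and p-values therefore refer to library-to-library spread, possibly of technical origin.

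As background, cytosolic RNA is sensed by the helicases RIG-I (RIGI) and MDA5 (IFIH1), which signal through MAVS to the factors IRF3 and IRF7, and cytosolic DNA is sensed by cGAS and STING. Secreted interferons bind receptors that act through the kinases JAK1 and TYK2, and a complex that holds STAT2 and IRF9 then binds the interferon-stimulated response element (ISRE) in the promoters of antiviral genes. IRF3 and IRF1 can bind related elements directly. LNCaP cells, the parental line, are known to be deficient in JAK1.

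The genes that rose most were antiviral effectors of the OAS and IFIT families, IFI44 and the transcription factor gene IRF1, most of which had little RNA in DMSO libraries. MAVS, PML, MX1, IRF7 and ADAR fell most. In bulk libraries, fewer cells of a type and less RNA per cell cannot be told apart. Of the 39 genes, all tested, 22 rose, 9 fell and 8 did not pass (limma on log2 of the normalised count plus 1, adjusted p under 0.05 over all 14437 genes tested). Over all genes tested the share that rose was 31.3% and the share that fell 31.4%, so 62.8% of genes were called in all. Among the 39 genes those shares were 56.4% and 23.1%. At least a 2-fold rise was seen for 11 of the 39 (28.2%) against a background of 7.92%, and at least a 2-fold fall for 3 (7.69%) against 9.27%. These 11 include OASL, OAS1, IFIT1, IFIT2, IFIT3 and IFI44, with DMSO means of 0, 6.05, 8.25, 8.56, 2.45 and 5.53. Those genes passed the filter (a mean of at least 10 over all libraries) only through their IPI-9119 libraries. The shares of 56.4% and 28.2%, and the median given next, rest in part on them. The median log2 fold change was 0.52 over the 39 genes and 0.0017 over all genes. The median was 0.42 without OASL and IFIT3, which had fewer than 10 reads over the DMSO libraries. That median still holds OAS1, IFIT1, IFIT2 and IFI44, so it also rests in part on genes that passed the filter only through IPI-9119.

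Depth was 19090749 to 20422882 reads in the IPI-9119 libraries and 21952620 to 23448035 in the DMSO libraries. Every one of the 39 genes had at least 104 reads over all libraries, and together they held 0.0794% of all reads with IPI-9119 and 0.0787% with DMSO. All 14 luminal prostate markers had a row, and their summed level was 190153 to 192226 normalised counts with IPI-9119 against 327941 to 341330 with DMSO. Of the 14, 12 fell (85.7%), where 31.4% of all genes tested fell. Of 17 leukocyte markers only LCP1 was analysed here, with 8720 to 9488 normalised counts in IPI-9119 libraries against 7535 to 7766 in DMSO libraries. Fibroblast markers (5 of 10 analysed) summed to 185 to 264 normalised counts with IPI-9119 and 221 to 241 with DMSO. Endothelial markers (3 of 7) summed to 672 to 734 with IPI-9119 and 584 to 595 with DMSO, and the plasmacytoid dendritic cell list had TCF4 alone of 6, at 136 to 199 with IPI-9119 and 134 to 161 with DMSO. The part of these lists in the results was not tested. The drug's target gene FASN did not pass the test (log2 fold change -0.31, SE 0.15, limma adjusted p 0.112). It passed as lower without IPI-9119 replicate 3 (-0.40, adjusted p 0.0225) and with a replicate block (-0.31, adjusted p 2.71e-05), and a correction for exonic length and GC content turned its direction (0.84, adjusted p 2.10e-08; up to 0.298 over the alternatives). The first principal component held 83.0% of the variance. The labels give no batch, so group and batch cannot be told apart.

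IPI-9119 libraries lay wholly above the DMSO libraries for 22 of the 39 genes (background 34.0%) and wholly below for 10 (background 33.9%), and overlapped them for 7, against a background of 67.9% of genes without overlap.

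**Figure D1:**
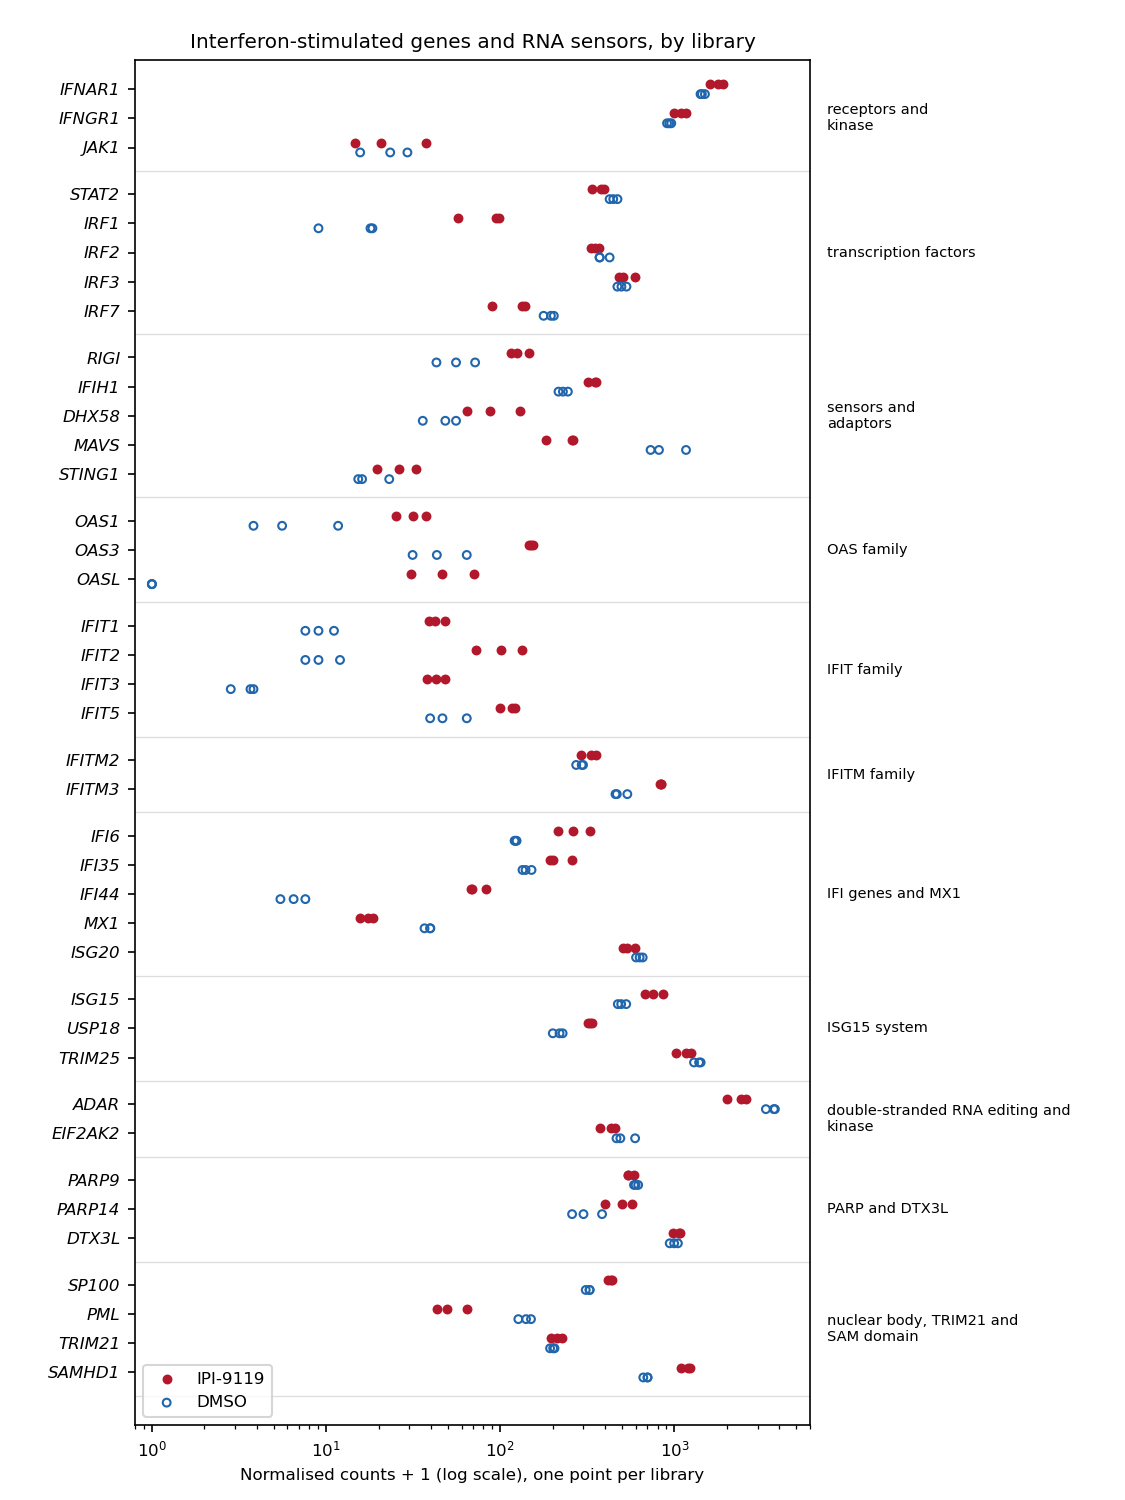
Normalised counts plus 1 (log axis) of each of the 39 genes, grouped by role, with filled points for the 3 IPI-9119 libraries and open points for the 3 DMSO libraries. IPI-9119 libraries lay wholly above DMSO libraries for 22 genes and wholly below for 10.

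Promoters are shown first because the ISRE is what most of these genes are known to share. Promoter windows came from RefSeq on GRCh38.p14, 250 bases before to 50 after each annotated start, and 29 of the 39 genes matched one. The ISRE core was searched on both strands as GAAA, any 2 bases and GAAA, overlapping matches included. It was found in a window of 16 of the 29 genes (55.2%, 95% Wilson interval 37.5 to 71.6%), against 4.38% of the 27305 genes in the promoter table. Of those 16, 10 rose, 3 fell and 3 did not pass, with a median log2 fold change of 0.63. Of the 13 with no match in the window, 8 rose, 4 fell and 1 did not pass, with a median of 0.28. Neither median holds the genes without a window, among them OASL (5.54), IFIT2 (3.40) and PML (-1.43). Over all 383 tested genes with the core, 35.8% rose and 32.6% fell, close to the 31.3% and 31.4% of all genes tested. The core was frequent in this family, and genes that hold it were called about as often as genes at large.

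The 200 bases before the start are printed for IFIT1 (chr10:89392423-89392622, plus strand), IFIT3 (chr10:89327797-89327996, plus strand) and IFI44 (chr1:78649589-78649788, plus strand), which were among the largest rises. They are also printed for ISG15 (chr1:1013297-1013496, plus strand), an abundant target that rose modestly, and for MX1 (chr21:41431850-41432049, plus strand), which has the core and fell. Capitals mark the ISRE core, which reads TTTC, any 2 bases and TTTC where it lies on the other strand. Each sequence runs 5′ to 3′ on the strand of its gene.
IFIT1: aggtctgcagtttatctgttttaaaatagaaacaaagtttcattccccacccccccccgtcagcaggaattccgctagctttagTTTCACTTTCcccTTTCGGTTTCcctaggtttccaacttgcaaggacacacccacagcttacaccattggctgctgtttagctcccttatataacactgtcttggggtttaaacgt
IFIT3: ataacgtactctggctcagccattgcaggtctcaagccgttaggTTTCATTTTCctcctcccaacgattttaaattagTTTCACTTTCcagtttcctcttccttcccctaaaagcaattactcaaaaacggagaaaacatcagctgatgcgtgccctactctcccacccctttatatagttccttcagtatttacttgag
IFI44: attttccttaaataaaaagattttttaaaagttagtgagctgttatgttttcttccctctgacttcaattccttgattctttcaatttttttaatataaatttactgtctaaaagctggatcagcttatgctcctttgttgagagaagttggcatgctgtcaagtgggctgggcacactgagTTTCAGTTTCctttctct
ISG15: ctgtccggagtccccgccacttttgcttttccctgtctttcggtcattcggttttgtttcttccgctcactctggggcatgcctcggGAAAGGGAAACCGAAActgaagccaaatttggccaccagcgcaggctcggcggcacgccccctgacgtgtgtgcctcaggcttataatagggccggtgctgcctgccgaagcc
MX1: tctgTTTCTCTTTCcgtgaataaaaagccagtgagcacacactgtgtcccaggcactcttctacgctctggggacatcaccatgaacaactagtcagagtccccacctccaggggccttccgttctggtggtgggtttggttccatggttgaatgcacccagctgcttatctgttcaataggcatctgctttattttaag

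The first base of the core lay 116 and 103 bases before the start in IFIT1, 156 and 122 in IFIT3, 18 in IFI44, 113 and 107 in ISG15 (overlapping matches) and 196 in MX1. The MX1 window is 1 of 3 in the table, those of IFIT3 and IFI44 are 1 of 2 each. IRF1, whose promoter is known for a gamma-activated site (GAS), had no ISRE core in its window. Its 200 bases before the start (chr5:132490774-132490973, minus strand) are printed with the GAS consensus TTCNNNGAA in capitals, a palindrome found 124 bases before the start.
IRF1: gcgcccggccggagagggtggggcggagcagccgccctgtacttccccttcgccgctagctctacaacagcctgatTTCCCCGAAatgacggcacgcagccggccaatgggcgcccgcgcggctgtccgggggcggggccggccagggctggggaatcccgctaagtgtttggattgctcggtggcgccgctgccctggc

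The GAS consensus was found in 5 of the 29 genes (17.2%) against 9.38% of all genes in the promoter table, and these were IRF1, OAS1, IFI35, MX1 and PARP14. A match describes these letters only and does not show binding.

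**Figure D2:**
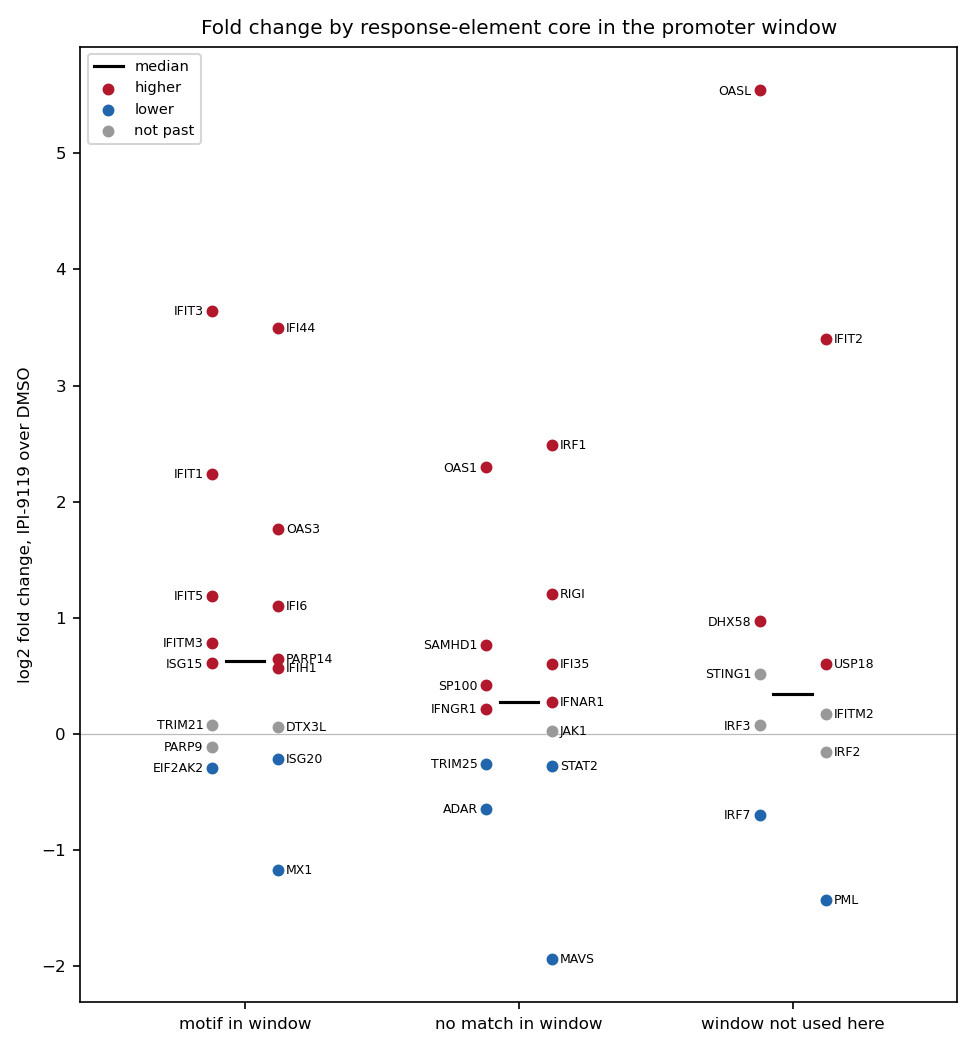
Log2 fold change of each of the 39 genes, IPI-9119 over DMSO, by whether the RefSeq promoter window holds the ISRE core (16 genes), holds no match (13) or was not used here (10), with a black line at each median. Genes with the core spanned from IFIT3 at 3.64 to MX1 at -1.17.

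The receptors of interferon rose slightly, and JAK1 rested on few reads in both groups. IFNAR1, a chain of the type I interferon receptor, had 1597, 1778 and 1905 normalised counts in IPI-9119 libraries, against 1436, 1411 and 1495 in DMSO libraries (log2 fold change 0.28, SE 0.066, limma adjusted p 0.00205). Its change was 0.16 with length and GC content corrected. IFNGR1, the ligand-binding chain of the interferon gamma receptor, had 1159, 1092 and 998 with IPI-9119 against 957, 932 and 906 with DMSO (0.21, SE 0.068, limma adjusted p 0.0134). Dropping DMSO replicate 3 ended that call (adjusted p 0.0554), and the correction for length and GC content turned its direction (-0.057), with adjusted p between 0.00255 and 0.446 over all alternatives. The groups did not overlap for either receptor, as for 67.9% of all genes tested. JAK1, the kinase shared by both receptors, had 13, 18 and 33 reads in the IPI-9119 libraries against 25, 30 and 16 in the DMSO libraries. Its log2 fold change was 0.025, with a 95% interval of -0.77 to 0.82, its libraries overlapped, and its sign varied with the setting. Per kilobase of exon JAK1 had 3.67 normalised counts with IPI-9119 and 3.45 with DMSO, whereas the related kinase genes TYK2 (45.2 with IPI-9119 and 63.7 with DMSO) and JAK2 (55.6 with IPI-9119 and 58.7 with DMSO), named for comparison after their values were seen, had more.

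Of the transcription factors IRF1 alone rose. IRF1, a direct activator of antiviral genes, had 55.9, 93.8 and 97.9 normalised counts with IPI-9119 (53, 86 and 89 reads), against 8.04, 17.0 and 17.5 with DMSO (9, 18 and 19 reads). All IPI-9119 libraries lay above all DMSO libraries, a 5.83-fold rise (log2 fold change 2.49, SE 0.32, limma adjusted p 1.03e-05). The antisense gene C5orf56 shares 22% of the IRF1 exons, and had 19.8 normalised counts with IPI-9119 and 16.9 with DMSO. The sources used here give no strand setting for the counting, so reads of these genes within the shared stretch cannot be told apart. IRF7, which amplifies the type I response, went the other way, with 132, 137 and 89.1 normalised counts with IPI-9119 against 202, 194 and 176 with DMSO (-0.70, SE 0.16, limma adjusted p 0.00179). Corrected for length and GC content, its log2 fold change was -0.44. STAT2, a subunit of the ISRE-binding complex, fell as well, to 337, 376 and 393 normalised counts in IPI-9119 libraries, against 444, 470 and 423 in DMSO libraries (-0.27, SE 0.090, limma adjusted p 0.0156). Dropping DMSO replicate 2 (adjusted p 0.0679) or quantile scaling (0.0952) ended that call, and adjusted p ran from 0.00803 to 0.0952 over all alternatives.

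IRF3, the factor that RNA and DNA sensors activate, had 589, 482 and 506 normalised counts with IPI-9119 against 495, 529 and 469 with DMSO. Its log2 fold change was 0.075, with a 95% interval of -0.12 to 0.27, and its groups overlapped. The opposite-strand gene BCL2L12 covers 19.3% of the IRF3 exons. IRF2, which can repress IRF1 targets, had 369, 330 and 348 normalised counts with IPI-9119 against 371, 371 and 423 with DMSO. It did not pass (-0.15, 95% interval -0.35 to 0.046) although its groups did not overlap. Corrected for length and GC content it did (-0.37, adjusted p 0.00128), the lowest of a range up to 0.742 over the alternatives.

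The cytosolic RNA helicases rose while their shared adaptor MAVS fell. RIGI, the sensor of 5′-triphosphate RNA, had 144, 124 and 114 normalised counts with IPI-9119 against 42, 54.7 and 70.7 with DMSO, 2.29-fold higher (log2 fold change 1.20, SE 0.20, limma adjusted p 9.74e-05). IFIH1, the MDA5 sensor of long double-stranded RNA, had 348, 356 and 318 with IPI-9119 against 228, 243 and 215 with DMSO (0.57, SE 0.099, limma adjusted p 1.70e-04). DHX58 (LGP2), which tunes both helicases, had 63.3, 86.2 and 129 normalised counts with IPI-9119 against 47.4, 54.7 and 34.9 with DMSO (0.97, SE 0.25, limma adjusted p 0.00396). No IPI-9119 library of these genes overlapped the DMSO range, as for 67.9% of all genes tested. MAVS, the mitochondrial adaptor of RIG-I and MDA5, had 181, 262 and 257 normalised counts with IPI-9119, against 728, 1164 and 814 with DMSO. It was 3.86-fold lower (-1.94, SE 0.19, limma adjusted p 2.37e-05), or -1.43 on the log2 scale once length and GC content were corrected. On the scale of normalised counts per kilobase of exon MAVS held 19.8 with IPI-9119 and 76.6 with DMSO, while RIGI held 29.3 with IPI-9119 and 12.8 with DMSO. STING1, the adaptor of the DNA sensor cGAS, rested on 30, 23 and 17 reads with IPI-9119 and 16, 16 and 24 with DMSO, which overlapped. Its log2 fold change was 0.52 (95% interval -0.15 to 1.19, limma adjusted p 0.163).

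All 3 analysed genes of the OAS family rose, where 31.3% of all genes tested rose. OASL and OAS1 passed the filter only through their IPI-9119 libraries. The OAS genes encode 2′-5′-oligoadenylate synthetases, which activate RNase L, or, for OASL, an inactive relative that enhances RIG-I signalling. OASL had 43, 64 and 27 reads in the IPI-9119 libraries and 0 reads in each DMSO library. It was at least 17.5-fold higher, taking a floor of 3 reads per DMSO library. OAS1 had 24.2, 30.5 and 36.3 normalised counts with IPI-9119 (23, 28 and 33 reads) against 10.7, 2.83 and 4.59 with DMSO (12, 3 and 5 reads). The ratio of reads, scaled for depth, was 4.95, with an exact 95% interval of 3.01 to 8.5 for counting error only (log2 fold change 2.30, SE 0.43, limma adjusted p 3.35e-04). OAS3, the largest enzyme of the family, had 154, 149 and 145 normalised counts with IPI-9119 against 30.4, 63.2 and 42.2 with DMSO (1.76, SE 0.22, limma adjusted p 8.83e-06). No library of these genes overlapped between the groups, as for 67.9% of all genes tested.

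All 4 IFIT genes, which encode antiviral RNA-binding proteins and lie side by side on chromosome 10, rose, where 31.3% of all genes tested rose. IFIT1, IFIT2 and IFIT3 passed the filter only through their IPI-9119 libraries. IFIT2 had 71.7, 132 and 100.1 normalised counts with IPI-9119 against 8.04, 6.60 and 11 with DMSO, 11.8-fold higher (log2 fold change 3.40, SE 0.29, limma adjusted p 1.80e-07). IFIT3 had 35, 43 and 38 reads with IPI-9119 against 3, 3 and 2 with DMSO, a scaled ratio of 17.1 (exact 95% interval 8.38 to 40.5 for counting error; 3.64, SE 0.37, limma adjusted p 1.07e-06). IFIT1 had 36, 38 and 43 reads with IPI-9119 against 9, 7 and 11 with DMSO (2.24, SE 0.30, limma adjusted p 1.70e-05). IFIT5, which had the highest level of the 4 per kilobase in DMSO libraries, rose least, at 116, 98.2 and 120 normalised counts with IPI-9119 against 45.6, 63.2 and 38.6 with DMSO (1.19, SE 0.20, limma adjusted p 1.24e-04). The groups were separate for each of these genes, as for 67.9% of all genes tested. Per kilobase of exon the 4 genes spanned 9.15 to 27.7 normalised counts with IPI-9119 and 0.928 to 12.2 with DMSO.

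The remaining IFI genes rose and MX1 and ISG20 fell. IFI44, a cytosolic protein gene induced by type I interferon, had 78, 61 and 62 reads with IPI-9119 against 5, 7 and 6 with DMSO (log2 fold change 3.50, SE 0.29, limma adjusted p 1.27e-07). IFI6, a small protein gene, had 326, 261 and 212 normalised counts with IPI-9119 against 122, 120 and 123 with DMSO (1.10, SE 0.15, limma adjusted p 1.37e-05). IFI35, a leucine zipper protein gene, had 257, 200 and 191 with IPI-9119 against 150, 139 and 133 with DMSO (0.60, SE 0.13, limma adjusted p 0.00129). MX1, the antiviral dynamin-like GTPase, had 14, 15 and 16 reads with IPI-9119 against 40, 41 and 42 with DMSO. Its groups were tight and separate, and it fell by 1.17 on the log2 scale (SE 0.26, limma adjusted p 0.00115). With length and GC content corrected, its log2 fold change was -0.82. ISG20, an exonuclease gene, was lower by a small amount, with 590, 534 and 505 normalised counts with IPI-9119 against 656, 601 and 630 with DMSO (-0.21, limma adjusted p 0.0318). Leaving out IPI-9119 replicate 2 (adjusted p 0.0838) or 3 (0.126), or DMSO replicate 1 (0.113) or 3 (0.0781), ended that call. So did quantile scaling (0.191), DESeq2 (0.0516) and limma with neither trend nor robust fit (0.0604), while correcting length and GC content turned its direction (0.053), in a range of adjusted p from 0.00498 to 0.634.

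**Figure D3:**
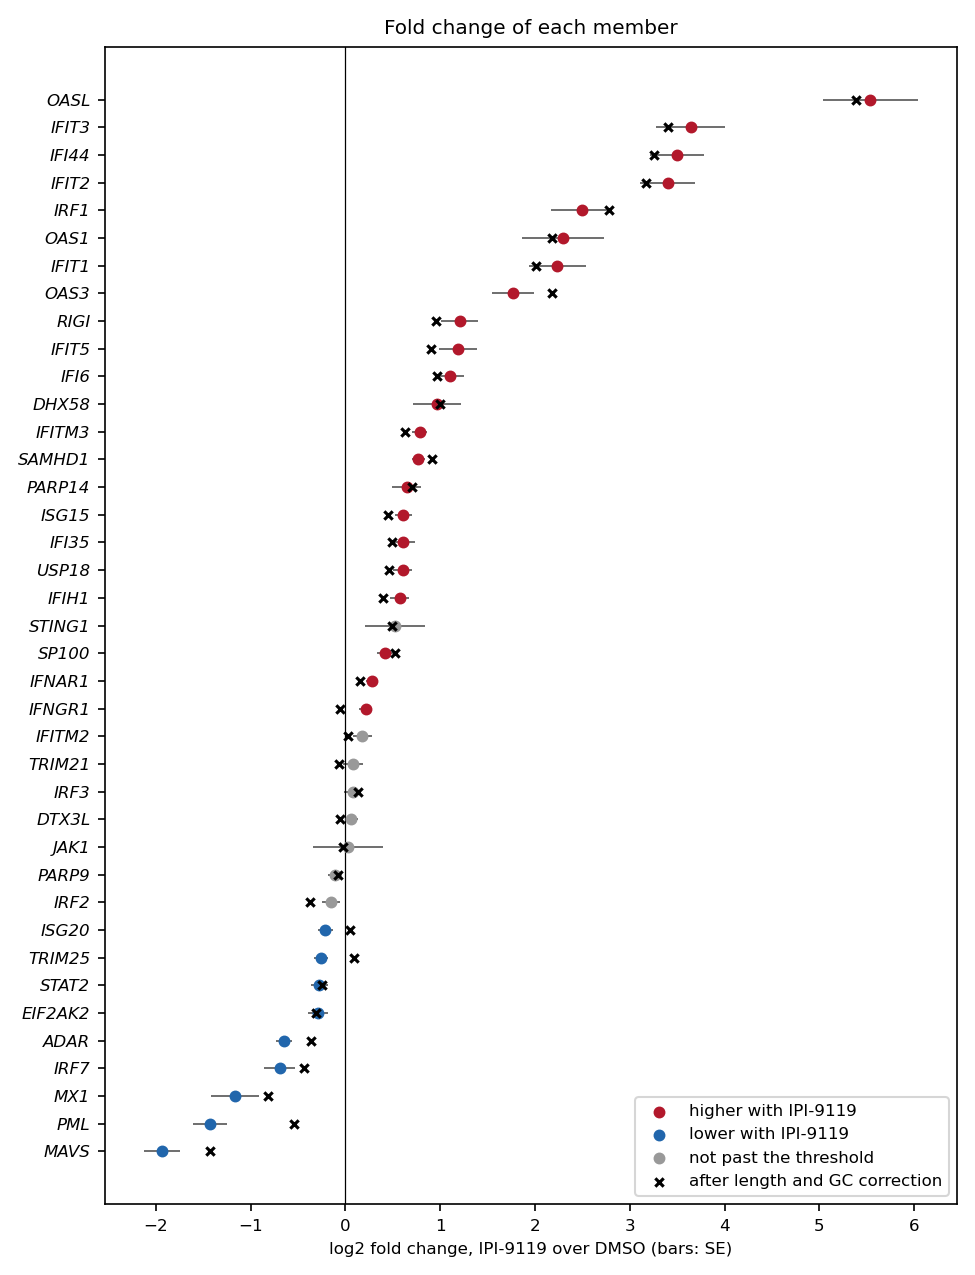
Log2 fold change (IPI-9119 over DMSO) of each of the 39 genes with its SE, coloured by the limma call, beside values corrected for length and GC content (crosses). Values ran from 5.54 for OASL, a fitted value that depends on the added count because its DMSO libraries held 0 reads, to -1.94 for MAVS.

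The ISG15 system and the IFITM genes followed, with changes of less than 2-fold. ISG15, a ubiquitin-like modifier and the gene with the highest level per kilobase, had 860, 753 and 674 normalised counts with IPI-9119 against 527, 493 and 472 with DMSO (log2 fold change 0.61, SE 0.091, limma adjusted p 4.48e-05). USP18, which removes ISG15 and restrains the type I receptor, had 335, 317 and 326 with IPI-9119 against 227, 218 and 199 with DMSO (0.60, SE 0.098, limma adjusted p 1.04e-04). TRIM25, a ubiquitin ligase of the RIG-I pathway, fell, with 1023, 1159 and 1249 normalised counts with IPI-9119 against 1294, 1384 and 1413 with DMSO (-0.26, SE 0.073, limma adjusted p 0.00727). Correcting length and GC content turned its direction (0.088), and a fit with neither trend nor robust steps ended its call (adjusted p 0.0523, range over alternatives 2.53e-04 to 0.205). IFITM3, which blocks virus entry, had 838, 836 and 830 with IPI-9119 against 535, 458 and 466 with DMSO (0.78, SE 0.077, limma adjusted p 8.48e-07). IFITM2 had 291, 356 and 331 with IPI-9119 against 298, 293 and 272 with DMSO, which overlapped (0.18, 95% interval -0.040 to 0.39), and passed on leaving out IPI-9119 replicate 1 (0.26, adjusted p 0.0355) and with quantile scaling (0.29, adjusted p 0.0161, range over alternatives 0.0161 to 0.815). The IFITM genes are close copies and IFITM2 shares 22.7% of its annotated exons with IFITM1, so their separate levels are uncertain.

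The RNA-editing gene ADAR and the kinase gene EIF2AK2 fell. ADAR, which edits adenosine in double-stranded RNA and keeps it from MDA5, had 1996, 2568 and 2401 normalised counts with IPI-9119 against 3348, 3771 and 3721 with DMSO. It was 1.56-fold lower with no overlap (log2 fold change -0.64, SE 0.084, limma adjusted p 3.67e-05). With length and GC content corrected, the change was -0.37, more than 1.5 times smaller. EIF2AK2, the kinase PKR that stops translation on double-stranded RNA, had 371, 430 and 456 with IPI-9119 against 488, 594 and 464 with DMSO (-0.29, SE 0.11, limma adjusted p 0.0268). Leaving out IPI-9119 replicate 1 (adjusted p 0.0709) or DMSO replicate 2 (0.151) ended this call, as did quantile scaling (0.0856) and a fit with neither trend nor robust steps (0.0912), in a range from 0.00580 to 0.151.

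PARP14, a mono-ADP-ribosyltransferase, rose, while its chromosome 3 neighbours PARP9 and DTX3L, which form one complex, did not pass. PARP14 had 397, 502 and 569 normalised counts with IPI-9119 against 257, 383 and 299 with DMSO (log2 fold change 0.65, SE 0.16, limma adjusted p 0.00374). PARP9 had 543, 537 and 587 with IPI-9119 against 597, 618 and 585 with DMSO (-0.11, 95% interval -0.27 to 0.047). DTX3L had 979, 1073 and 1056 with IPI-9119 against 939, 1045 and 995 with DMSO (0.062, 95% interval -0.080 to 0.20), and both of these overlapped between the groups. Of the nuclear body genes SP100 rose and PML, the scaffold of these bodies, fell. PML had 40, 58 and 44 reads with IPI-9119 against 141, 158 and 152 with DMSO, 2.70-fold lower (-1.43, SE 0.18, limma adjusted p 8.38e-06). Corrected for length and GC content, its log2 fold change was -0.54. SP100 had 438, 412 and 432 normalised counts with IPI-9119 against 325, 309 and 324 with DMSO (0.42, SE 0.084, limma adjusted p 5.83e-04). SAMHD1, a nucleotide hydrolase that limits virus replication, had 1085, 1191 and 1234 with IPI-9119 against 661, 699 and 700 with DMSO (0.77, SE 0.068, limma adjusted p 2.95e-07), with 10.3% of its exons shared with the opposite-strand gene TLDC2. TRIM21, a cytosolic antibody receptor, had 227, 209 and 195 with IPI-9119 against 192, 204 and 200 with DMSO, which overlapped (0.079, 95% interval -0.16 to 0.31).

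Calls were also counted by level and by length, with no test of a difference between bands. Of 15 genes with an average below 100 normalised counts over all libraries, 11 rose, 2 fell and 2 did not pass, where 23.3% of all genes at that level rose and 20.2% fell. Among those that rose, OASL, OAS1, IFIT1, IFIT2, IFIT3 and IFI44 passed the filter only through their IPI-9119 libraries. Of the 24 genes at 100 or more, 11 rose, 7 fell and 6 did not pass, where 34.5% of all genes rose and 35.9% fell. By exonic length, 4 of 6 genes under 2000 nt rose and 0 fell, with 31.0% of all such genes rising and 16.1% falling. From 2000 to 4000 nt 6 of 10 rose and 1 fell (37.1% and 23.6% of all such genes), and from 4000 to 8000 nt 8 of 12 rose and 2 fell (31.5% and 35.8%). Of 11 genes of 8000 nt or more, 4 rose and 6 fell (23.5% and 46.3%). The median log2 fold changes of the 39 genes in these bands, short to long, were 0.61, 0.56, 0.88 and -0.26, against 0.13, 0.094, -0.036 and -0.17 over all genes. Across the 39 genes Spearman's rho of log2 fold change with exonic length was -0.39, against -0.17 across the 14392 tested genes with a length. These are correlations across genes, which share the libraries and are not independent replicates. With length and GC content corrected in each library, 21 of the 39 rose, 8 fell and 10 did not pass, against 30.7% rising and 34.1% falling over all genes, and 28 of the 31 calls were kept in the same direction. The part of length in the individual changes was not tested beyond this correction.

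**Figure D4:**
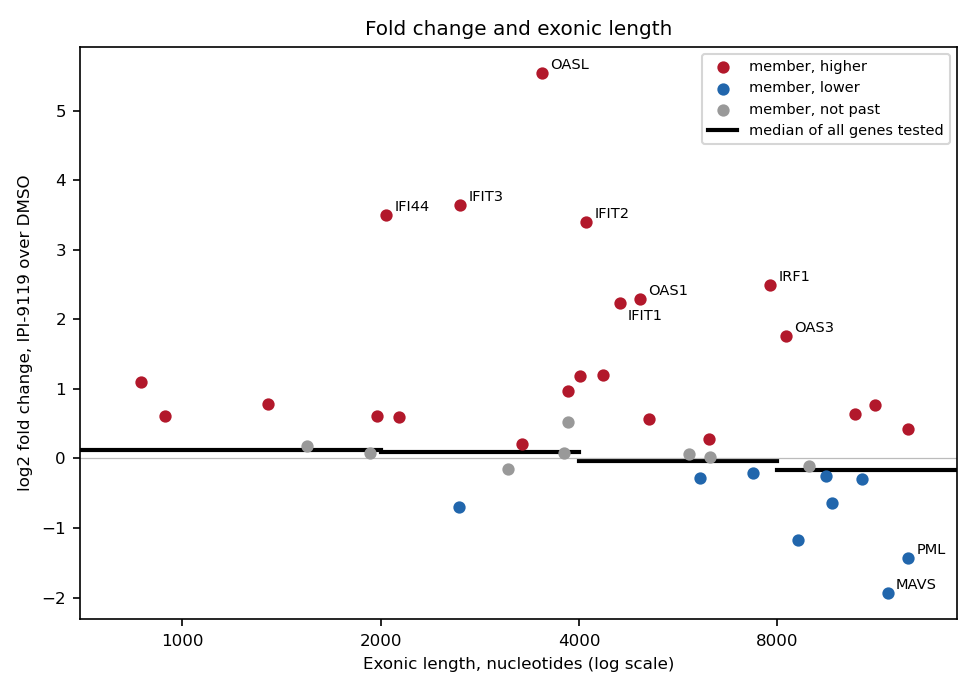
Log2 fold change (IPI-9119 over DMSO) of the 39 genes against exonic length (log axis), with bars at the median of all genes tested in each length band. The 4 genes of 8000 nt or more that rose (OAS3, PARP14, SAMHD1 and SP100) lie among 6 that fell.

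Other genes of the pathway, from lists drawn up with earlier results known, went both ways. Of 155 such genes outside the 39, 96 were tested, of which 43 rose (44.8%), 29 fell (30.2%) and 24 did not pass. Over all genes tested 31.3% rose and 31.4% fell. The median log2 fold change of the 96 was 0.11. Some of the genes that rose, named below, passed the filter only through their IPI-9119 libraries. The share of 44.8% rests in part on them. All 3 further receptor chains analysed rose, most of all IFNAR2, the partner of IFNAR1, at 260 ± 20.1 normalised counts with IPI-9119 and 115 ± 22.4 with DMSO (SD, n = 3 each; log2 fold change 1.18, limma adjusted p 6.33e-06). Of 16 JAK-STAT signalling and feedback genes 3 rose (18.8%), 9 fell (56.2%) and 4 did not pass. SOCS2, a feedback inhibitor of cytokine signalling, fell (-1.53), as did the STAT inhibitor gene PIAS4 (-0.81), while the feedback gene CISH rose (1.14) on 65 reads with IPI-9119 and 35 with DMSO. The CISH call ended without IPI-9119 replicate 3 (adjusted p 0.0869), without DMSO replicate 1 (0.0718) and without DMSO replicate 2 (0.0681), in a range from 0.00576 to 0.0869.

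Of 23 further sensing genes 8 rose (34.8%), 7 fell (30.4%) and 8 did not pass, close to the 31.3% and 31.4% of all genes tested. TRIM56, a ubiquitin ligase of nucleic acid sensing, fell to 128 ± 33.9 normalised counts in IPI-9119 libraries, against 685 ± 128 in DMSO libraries (SD, n = 3 each; log2 fold change -2.43, limma adjusted p 1.48e-06). The helicase gene DDX60 (1.95) and the kinase gene IKBKE (1.83), which can phosphorylate IRF3, rose. IKBKE had 110 reads over the IPI-9119 libraries and 37 over the DMSO libraries. Further type I interferon targets numbered 25, of which 11 rose (44.0%) and 5 fell (20.0%), with 9 not past the threshold and a median of 0.11. The death ligand gene TNFSF10 (3.20), CMPK2 (2.04) and the ISG15-conjugating enzyme gene UBE2L6 (2.01) rose, and the large ubiquitin ligase gene RNF213 fell (-0.95, or -0.093 with length and GC content corrected). TNFSF10 had 113 reads over the IPI-9119 libraries and 12 over the DMSO libraries. It passed the filter only through its IPI-9119 libraries, so the share of 44.0% rests in part on it. Only 6 of 21 interferon gamma targets were tested. These split into 3 that rose and 3 that fell. GBP2, a guanylate-binding protein gene (3.14), and the class I regulator NLRC5 (2.67) rose, and the Fc receptor gene FCGR1A (-1.79) fell. GBP2 had 146 reads over the IPI-9119 libraries and 17 over the DMSO libraries, and NLRC5 had 80 with IPI-9119 and 11 with DMSO. FCGR1A had 11 reads over the IPI-9119 libraries and 57 over the DMSO libraries. GBP2 and NLRC5 passed the filter only through their IPI-9119 libraries, and FCGR1A only through its DMSO libraries.

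Of 11 genes listed as direct IRF3 targets 7 were tested, all of them among the 39. Of these 7, 6 rose (85.7%) and ISG20 fell (14.3%), with a median log2 fold change of 2.24, against 31.3% and 31.4% of all genes. They include OASL, IFIT1, IFIT2 and IFIT3, so this recounts rises given above and is no separate result. Of 13 cytosolic nuclease and RNA decay genes 8 rose (61.5%), 2 fell (15.4%) and 3 did not pass, against 31.3% and 31.4% of all genes tested. The rises were led by RNASEH2A (1.48), the catalytic subunit of RNase H2, with RNASEH2B (0.68) and the decapping cofactor gene LSM1 (0.57). The lysosomal nuclease gene DNASE2 fell (-0.34). Of 11 NF-kB targets and feedback genes 7 rose (63.6%) and 4 fell (36.4%). BIRC3 (4.88), RELB (3.83), a subunit of the non-canonical pathway, and the feedback gene TNFAIP3 (2.18) rose, while RELA, the main canonical subunit, fell (-1.16). RELB had 318 reads over the IPI-9119 libraries and 23 over the DMSO libraries, and TNFAIP3 had 119 with IPI-9119 and 29 with DMSO. RELB and TNFAIP3 passed the filter only through their IPI-9119 libraries, so the share of 63.6% rests in part on them.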

How the data were processed

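RNA of C4-2 cells was measured in 3 IPI-9119 and 3 DMSO libraries. The deposited table holds a size-factor scaled signal, in which the authors' gene counts are divided by 1 number per library, as its steps show: 100% of values were whole multiples of 1 read (tolerance 0.01 read), and reads were recovered from them. Per the submitters' processing notes, the tools were Trimmomatic 0.36, STAR 2.5.2b, featureCounts, Subread 1.5.2 and DESeq2, on GRCh38. For annotation release and strand setting the sources used here give nothing.

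Genes with a mean of at least 10 were tested with limma 3.58.1 (R 4.3.3; trend, robust) on log2(value + 1), which understates changes of low genes. P-values (two-sided) were Benjamini-Hochberg adjusted over all 14437 genes. The filter removed 19 genes and none of the 39. OASL, OAS1, IFIT1, IFIT2, IFIT3 and IFI44 passed it only through their IPI-9119 libraries. Every gene received with the deposited values had at least 61 reads over all libraries. On the recovered reads edgeR 4.0.16 called 9081 genes and DESeq2 1.42.0 called 8460, against 9061 by limma. In a simulation over 14437 genes, limma recovered 97 of 100 true 2-fold changes and 91 of 100 true 1.5-fold changes. It called 6 genes that were unchanged. No other genes were changed there, and those changed had more reads than OASL, OAS1, IFIT1, IFIT3 or IFI44. In the data 62.8% of genes were called, so the simulation does not describe that setting or the low genes. Within groups, libraries varied beyond counting error (chi-square per degree of freedom 2.29 to 9.59).

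GENCODE 29 (GRCh38) supplied symbols, merged exonic lengths and GC content. Members and lists were chosen with earlier results of these data known. The naming rule asked for library values of the 8 largest rises and falls, of signalling and sensor genes and of low genes; here all 39 genes have them. From other lists at most 3 called genes by size of change, plus the largest the other way, are named. Intervals and floors cover counting error only. Alternatives were other scalings, pseudocounts, filters and tools, a replicate block, a correction for length and GC content, and leaving out each library.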

Additional observations from a re-analysis of the deposited data

How the results depend on the processing

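Of 654 values of single genes recomputed under 17 alternatives (6 of them leaving out a library), 626 kept direction and side of the threshold, 15 lost a call, 3 gained one and 10 changed sign. With the length and GC correction the sign changed for 3 called genes, IFNGR1 (-0.057), ISG20 (0.053) and TRIM25 (0.088), and for JAK1 (-0.026), DTX3L (-0.056) and TRIM21 (-0.067), which passed under neither. JAK1 also turned with quantile scaling (-0.068), without IPI-9119 replicate 3 and without DMSO replicate 3 (-0.34 to 0.33 without single libraries), and IRF3 without IPI-9119 replicate 1 (-0.010 to 0.13). With a pseudocount of 8 the changes of OAS1 (1.48) and IFIT3 (2.25) were more than 1.5 times smaller. Of the 31 called genes 26 kept their call under every alternative that tested them, and IFNGR1, STAT2, ISG20, TRIM25 and EIF2AK2 did not. The counts of genes that rose or fell stayed within 1.5 times under each setting (16 and 8 of the 30 genes that a mean of at least 50 leaves). The median log2 fold change moved to 0.41 with a pseudocount of 8, 0.25 with a mean of at least 50, and 0.45 with the length and GC correction, and ran from 0.40 to 0.53 without single libraries. The share with the ISRE core was 34.5% within 100 bases before the start, against 1.5% of all genes. Spearman's rho with the longest transcript was -0.30. Deviations from the group means of same-numbered libraries correlated at 0.14, 0.063 and 0.0044 for replicates 1, 2 and 3. IPI-9119 replicates 1 and 2 correlated best with the DMSO library of their number. IPI-9119 replicate 3 correlated best with DMSO replicate 2 (0.099). The labels give no pairing, and these values do not settle whether libraries of 1 number belong together. A replicate block left 22 of the 39 genes higher and 9 lower, and called 9596 of all genes. Low genes (OAS1, IFIT3, STING1, OASL and JAK1, 104 to 135 reads each over all libraries) limit precision.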

Other observations

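The genes around the IFIT cluster were looked at after its values were seen. Within 200 kb of the cluster on chromosome 10, LIPA, the lysosomal acid lipase gene, whose annotated span covers IFIT2, IFIT3 and IFIT1, had 2348 normalised counts with IPI-9119 and 1232 with DMSO (log2 fold change 0.93, SE 0.057, limma adjusted p 6.85e-09). PANK1, a pantothenate kinase gene, had 413 with IPI-9119 and 252 with DMSO (0.71, limma adjusted p 1.42e-05). Within 200 kb of OAS1 and OAS3 on chromosome 12 the neighbour DDX54, an RNA helicase gene, fell (-1.27, limma adjusted p 1.52e-08). Of 11 neighbours of the IFITM genes on chromosome 11, 3 rose and 4 fell, and of 9 around PARP9, DTX3L and PARP14 on chromosome 3, 5 rose and 1 fell. Over all genes tested 62.8% were called (31.3% rose and 31.4% fell), and a difference of the neighbours from these shares was not tested.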
